A study of Mus musculus with 12 samples.

Results

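Nr5a1, Nr0b1, Gata4, Zfpm2, Lhx9, Emx2, Cbx2 and Six4 encode transcriptional regulators that the mouse embryo needs to form a bipotential gonad. These 8 genes were chosen by name, and all 8 were found among the 32285 genes counted in single-cell RNA sequencing of gonads collected at E12. The study asked what the 2 main splice variants of the zinc finger protein WT1, which do (+KTS) or do not (-KTS) carry a short lysine-threonine-serine insert, each contribute to the gonad. The 6 groups were wild-type (WT), -KTS KO and +KTS KO gonads, each XX and XY, with 2 libraries per group and 12 in all. The -KTS KO embryos were homozygous for an allele that makes no -KTS variant, and the +KTS KO embryos were homozygous for an allele that makes no +KTS variant. The alleles were present in every cell of the embryo, the lines had a mixed B6CBAF1/JRj background, and each mutant could still make the other variant. The -KTS KO libraries pooled gonads of several embryos.

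The bipotential gonad arises as a thickening of the coelomic epithelium on the mesonephros, and its cells later give rise to the supporting lineage (Sertoli cells in the testis, pre-granulosa cells in the ovary) and to interstitial progenitors. NR5A1 (also named SF-1) is the nuclear receptor that drives steroidogenic and Sertoli genes, and NR0B1 (DAX1), encoded on the X chromosome, is a nuclear receptor without a usual DNA-binding domain that holds NR5A1 in check. GATA4 is a zinc finger factor that acts first in the genital ridge, together with its cofactor ZFPM2 (FOG2). LHX9 and EMX2 are homeodomain factors without which the genital ridge does not grow out, SIX4 is a homeodomain factor that acts in gonadal precursors, and CBX2 is a subunit of the Polycomb repressive complex.

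The 12 libraries held 108111924 to 147968666 UMIs (unique molecular identifiers, counts of single RNA molecules). After filters on quality and doublets, 76976 cells were kept, of which 66154 were gonadal somatic cells, meaning cells outside the germ, blood, endothelial, immune and mesonephric duct clusters. They include a cluster of 98 cells led by Actc1, Myog and Myod1, which are genes of skeletal muscle, and one of 193 cells led by Crabp1 and Hoxc10, both almost only from XY +KTS KO. Leaving these and the shallow unnamed clusters out of the sums changed no member's call. Values are given as CPM (UMIs of a gene scaled to a fixed library total) of the cells summed in each library, and where groups are compared these were scaled by edgeR's TMM method. In the sums of gonadal somatic cells, which held 57094594 to 99395955 UMIs a library, Ddx3y was at 0 in all 6 XX libraries and at 44.1 to 62.4 CPM in all 6 XY libraries, and Xist ran the other way, so the sex labels held. Total Wt1 was at 171 to 305 CPM in the 12 libraries, but 3′ counts do not tell its splice variants apart, so the mutant labels were not checked by these data. Pairs of libraries shared 0.086 to 0.451% of their cell barcodes. One library stood apart: XY +KTS KO replicate 1 had 574 CPM of the immediate early gene Fos, against 46.2 to 137 CPM in the other 11. In addition, 3156 of its cells lay in supporting-lineage clusters, against 208 in replicate 2. Unnamed clusters led by Cyp11a1 and Inha, which were not counted as supporting-lineage, held 126 cells of replicate 1 and 2671 of replicate 2. XX -KTS KO replicate 2 also differed from its pair, with 1275 germ-like cells against 270, unnamed clusters as 23.9% of its somatic cells against 3.24%, and germ markers summing to 55.0 CPM in its gonadal somatic cells, beside 3.90 to 33.0 CPM in the other 11 libraries. Calls that change without either library are given both ways. A sum over cells cannot tell fewer cells of a type from less RNA per cell, and the submitters call the 2 libraries of a group independent without saying whether they came from separate litters, so p-values measure the spread between libraries.

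On the mouse genome (GRCm38, which is mm10, with GENCODE M21 gene models) the 8 genes lie on 8 chromosomes. Nr5a1 is at chr2:38692656-38714542 on the minus strand, where the antisense gene Nr5a1os (0.373 to 1.57 CPM in gonadal somatic cells) overlaps it, and Nr0b1 is at chrX:86191764-86195947 on the plus strand. Gata4 is at chr14:63198922-63271692 (minus) and Zfpm2 at chr15:40655035-41104592 (plus). Lhx9 is at chr1:138825186-138848577 (minus), and Emx2 is at chr19:59458372-59465357 (plus), overlapped by the antisense gene Emx2os at 26.2 to 97.2 CPM. Cbx2 is at chr11:119022962-119031270 (plus) and Six4 at chr12:73099609-73113456 (minus). Whether counting used the strand was not stated in the sources used here, so reads of Emx2 and Emx2os may not be fully told apart.

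The 250 bases before the start of 3 members are shown, because Nr0b1 was the member with the largest change in XX -KTS KO and Lhx9 and Emx2 both rose in XY -KTS KO. They are RefSeq sequences (GRCm38.p6), in the direction of the gene. The table used held promoters for 4 of the 8 members, the fourth being Six4. Capitals mark the single match, on either strand, among 5 motifs searched, which was AGGTCA (a nuclear receptor motif, the core of the sites that NR5A1 binds). The others were AGATAA, bound by zinc finger factors like GATA4, the homeodomain core TAATTA, the EGR1 and WT1 motif GCGTGGGCG, and the SP1 motif GGGGCGGGG.
Nr0b1, chrX:86191525-86191774, plus strand: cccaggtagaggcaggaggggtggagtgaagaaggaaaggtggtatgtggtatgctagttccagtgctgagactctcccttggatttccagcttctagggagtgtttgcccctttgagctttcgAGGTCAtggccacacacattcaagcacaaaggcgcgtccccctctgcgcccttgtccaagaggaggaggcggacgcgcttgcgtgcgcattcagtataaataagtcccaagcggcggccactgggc
Lhx9, chr1:138842445-138842694, minus strand: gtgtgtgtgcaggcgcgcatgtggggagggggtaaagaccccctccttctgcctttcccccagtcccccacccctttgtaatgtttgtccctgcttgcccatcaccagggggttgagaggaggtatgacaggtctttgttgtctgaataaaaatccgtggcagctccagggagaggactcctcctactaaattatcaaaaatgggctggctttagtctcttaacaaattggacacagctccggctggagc
Emx2, chr19:59458440-59458689, plus strand: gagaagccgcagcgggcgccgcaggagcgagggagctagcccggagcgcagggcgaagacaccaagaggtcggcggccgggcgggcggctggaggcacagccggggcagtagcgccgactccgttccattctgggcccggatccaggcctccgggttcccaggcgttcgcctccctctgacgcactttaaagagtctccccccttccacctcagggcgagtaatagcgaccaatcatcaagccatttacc
The AGGTCA of Nr0b1 lies 126 to 121 bases before the start. Of 32851 RefSeq promoters of this length, 14.0% hold AGGTCA, 9.99% AGATAA, 4.84% TAATTA, 0.536% GCGTGGGCG and 10.4% GGGGCGGGG, so a match is a description and not a binding site. None of the 5 motifs was found in the windows of Lhx9 and Emx2, which lie inside the span of the GENCODE gene because RefSeq starts those genes further downstream.

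Cell classes were named from marker genes that did not include the 8 members, and the members were also left out of the clustering. Each member had its own distribution over the classes, pooled over all 12 libraries. Lhx9 was at 520 CPM in coelomic epithelium-like cells, 284 CPM in interstitial progenitor-like cells and 69.7 CPM in Sertoli-like cells. Emx2 was at 273 CPM in pre-granulosa-like, 214 CPM in coelomic epithelium-like and 79.7 CPM in Sertoli-like cells. Gata4 ran the other way, with 160 CPM in Sertoli-like, 85.3 CPM in coelomic epithelium-like and 60.5 CPM in interstitial progenitor-like cells. Pooled values weight libraries by their cells, and by the median library with at least 50 cells Gata4 was as high in pre-supporting-like (133 CPM) and pre-granulosa-like (130.4 CPM) as in Sertoli-like cells (133 CPM). In Sertoli-like cells the median library had 168 CPM of Lhx9 (37.8 to 284 CPM in 4 libraries). For Emx2 it had 151 CPM (41.6 to 247 CPM). These 4 libraries were those of XX WT, with 151 and 139 such cells, and of XY WT, with 2513 and 2277. The median of this class therefore mixes both sexes. Zfpm2, which encodes the cofactor of GATA4, was more even, at 43.7 to 77.4 CPM in the 5 named somatic classes. Nr5a1 and Nr0b1 were each low in the coelomic epithelium-like class (29.97 and 24.5 CPM) and the interstitial progenitor-like class (21.8 and 23.0 CPM). In Sertoli-like cells they were at 86.1 and 83.0 CPM. They were at 90.5 and 198 CPM in 2 unnamed clusters led by Cyp11a1 and Inha, which encode a steroidogenic enzyme and a subunit of inhibin and which came almost only from +KTS KO libraries. By single cluster, Nr5a1 was at 116 CPM in a pre-granulosa-like cluster with 98.0% of its cells from XY +KTS KO and Fos and Junb among its leading genes, at 99.4 CPM in a Sertoli-like cluster, and at 46.3 CPM in the pre-granulosa-like cluster of XX WT. Cbx2 was highest in coelomic epithelium-like cells (20.7 CPM) and at 6.58 to 8.67 CPM in the 3 supporting-lineage classes.

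**Figure D1:**
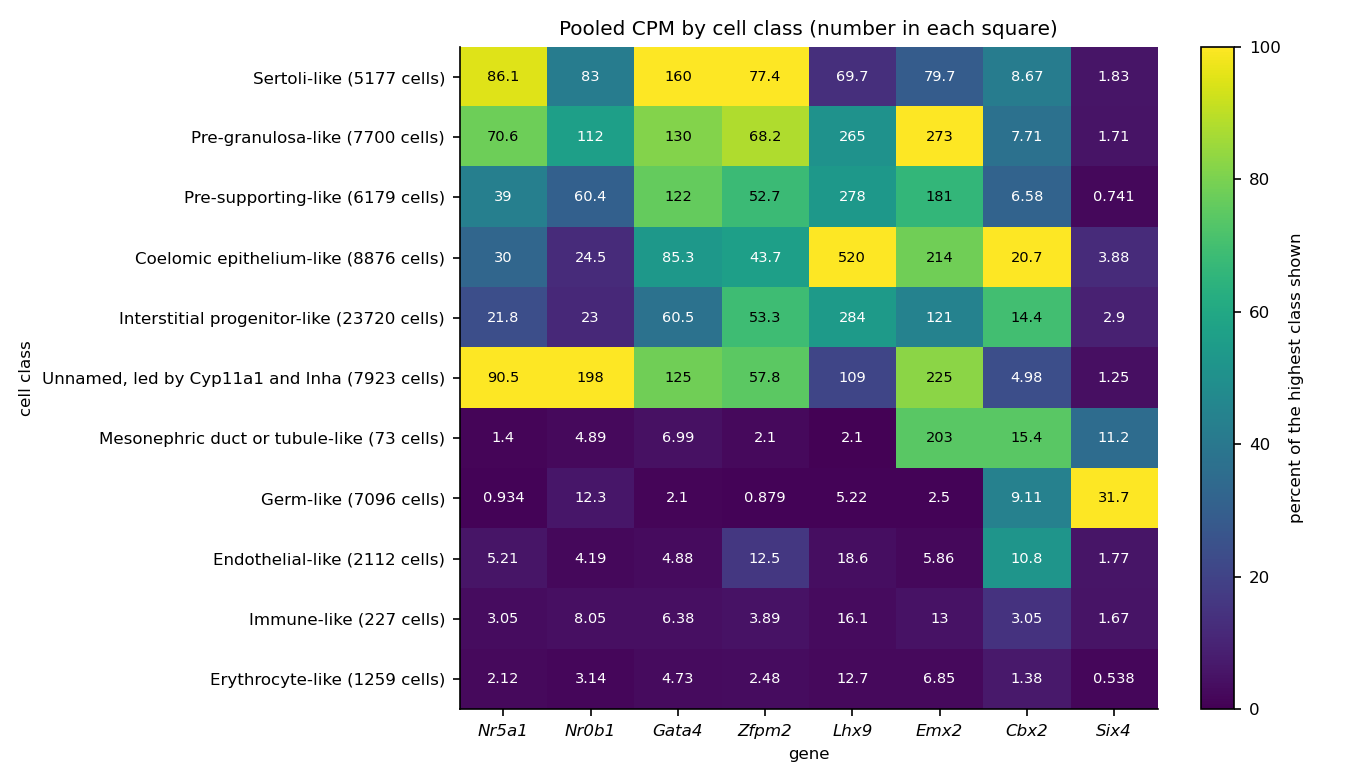
Rows are cell classes with their number of cells, columns are the 8 genes, and the number in each square is the CPM of the gene pooled over all cells of the class in 12 libraries. Colour gives the percent of the highest class for that gene. By these pooled values, Lhx9 and Cbx2 are highest in coelomic epithelium-like cells (520 and 20.7 CPM), Gata4 and Zfpm2 in Sertoli-like cells (160 and 77.4 CPM) and Six4 in germ-like cells (31.7 CPM).

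Erythrocyte-like cells, which should lack the members, gave the background. The 8 members were at 0.538 to 12.7 CPM there, and after thinning every cell to 5000 UMIs, 0.0859 to 4.12% of these cells had a UMI of a member (median depth before thinning 25780 UMIs). In gonadal somatic cells (median depth 12907 UMIs), the shares were 54.6% for Lhx9, 48.5% for Emx2, 34.8% for Gata4, 22.9% for Zfpm2, 21.1% for Nr0b1, 17.9% for Nr5a1, 5.88% for Cbx2 and 1.15% for Six4. Unthinned, 35.7% of gonadal somatic cells had a UMI of Nr5a1, against 17.9% at the fixed depth. Emx2 was also at 203 CPM in 73 mesonephric duct or tubule-like cells, where Gata4 was at 6.99 CPM and Lhx9 at 2.10 CPM. These cells came almost only from XY +KTS KO replicate 2, which held 72 of them.

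Sums over gonadal somatic cells were then compared between groups. Of the 8 members, 3 were called (adjusted p under 0.05, quasi-likelihood test of edgeR, Benjamini-Hochberg adjusted over 17705 genes) in XX -KTS KO against XX WT, where 16.2% of all genes were called. In XY -KTS KO against XY WT, 4 members were called, against 23.4% of all genes. In XX +KTS KO 1 member was called (4.99% of all genes), in XY +KTS KO 1 member (12.4%), and between XY WT and XX WT 2 members (13.2%). The median log2 fold change of the 8 members was -0.16 for XX and -0.08 for XY -KTS KO, beside 0.01 and 0.02 over all genes. For +KTS KO it was -0.0038 in XX and 0.33 in XY, beside 0.00 and 0.05. Between the WT sexes, the 6 members that were not called had log2 differences of -0.19 to 0.58 (adjusted p = 0.135 to 0.904, edgeR). Comparisons with the same WT libraries share their controls. With 2 libraries a group, groups often separate without overlap by chance, also where the difference is small. Where libraries are said not to overlap, this is a description and not a test.

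**Figure D2:**
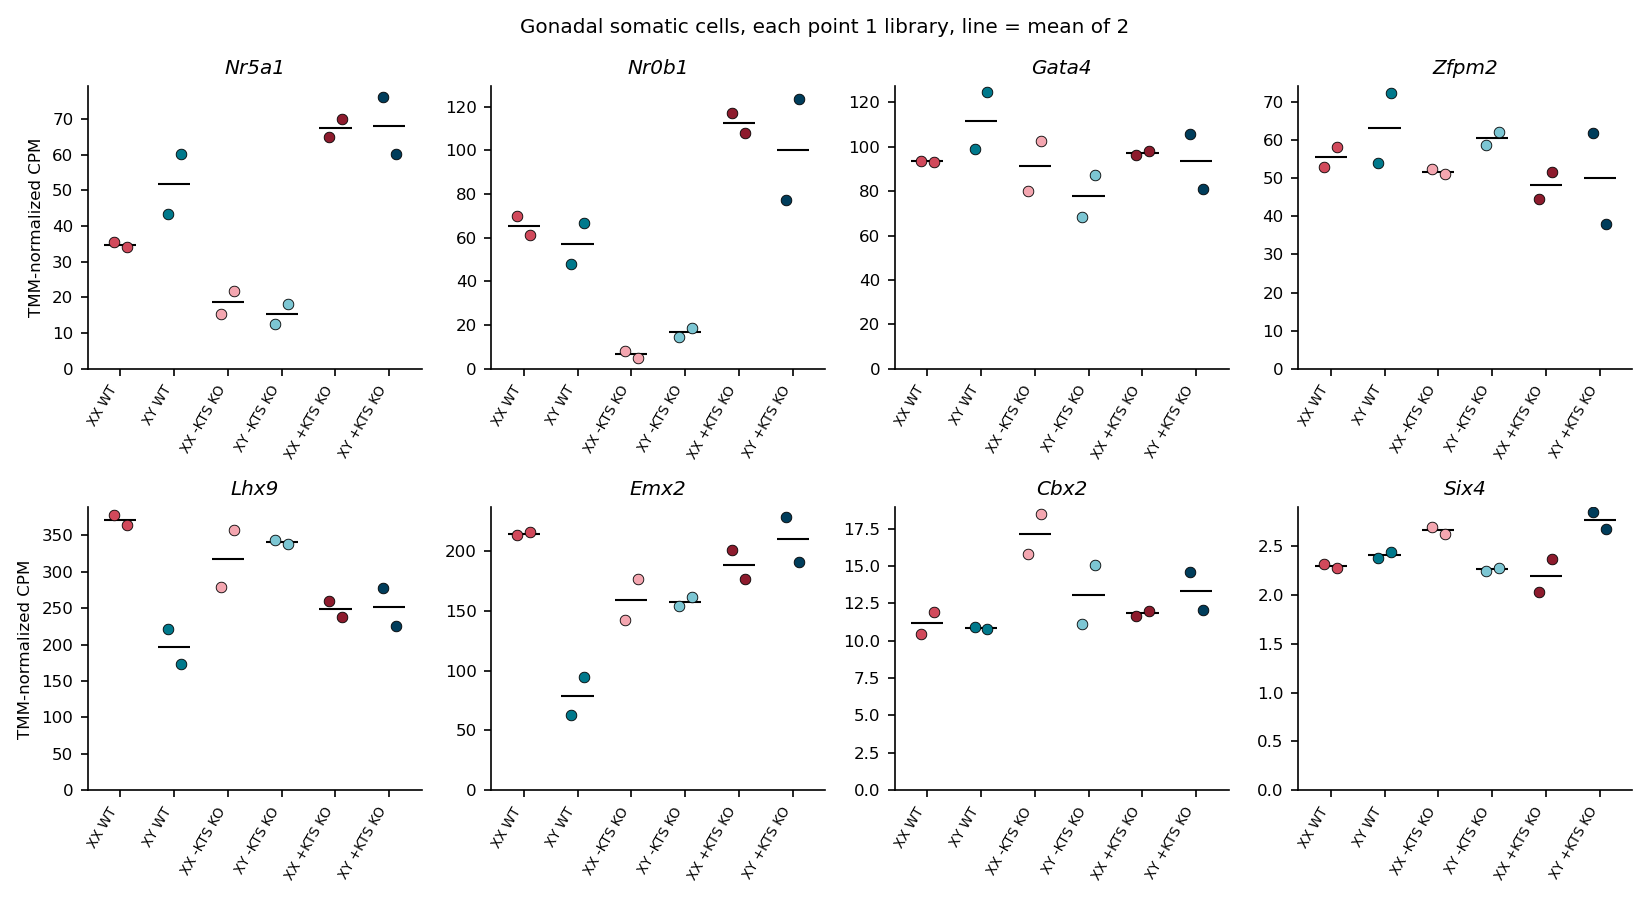
Each panel is 1 gene, each point 1 library and each line the mean of the 2 libraries of a group, as TMM-normalized CPM in gonadal somatic cells on a linear axis from 0. The -KTS KO libraries are the lowest for Nr5a1 (12.5 to 21.8 CPM) and Nr0b1 (5.11 to 18.8 CPM), and the XY WT libraries are the lowest for Emx2 (62.8 and 95.1 CPM).

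Nr0b1, the gene of the NR5A1 antagonist, had the largest fitted change of the 8 members in gonadal somatic cells of XX -KTS KO, while its fall in XY -KTS KO was about that of Nr5a1. Its level in gonadal somatic cells was 69.8 and 61.1 CPM for XX WT, 8.24 and 5.11 for XX -KTS KO and 117 and 108 for XX +KTS KO, while the XY values were 47.8 and 66.8 CPM for WT, 14.6 and 18.8 for -KTS KO and 77.1 and 124 for +KTS KO. Every -KTS KO library was lower than the lowest WT library, and every +KTS KO library was higher than the highest. In XX -KTS KO it fell by 3.29 on the log2 scale (SE 0.30, adjusted p = 0.000274, edgeR) and in XY -KTS KO it fell by 1.78 (SE 0.28, adjusted p = 0.00202, edgeR). Both falls were called under all 11 alternatives that were run. The fitted log2 differences in +KTS KO, 0.78 ± 0.28 (SE) in XX and 0.81 ± 0.28 (SE) in XY, did not pass the threshold (adjusted p = 0.157 and 0.0834, edgeR). The XY value was 1.12 with an adjusted p of 0.0413 (edgeR) without XY +KTS KO replicate 1, and the XY rise was also called with all kept cells (0.0256), with all cells and doublets kept (0.0272) and without the filter on low counts (0.0366). The effect of -KTS KO on Nr0b1 differed between XY and XX by 1.51 ± 0.40 (SE) on the log2 scale, with an adjusted p of 0.0772 (edgeR), 0.00898 with DESeq2 and 0.0149 without the filter on low counts.

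Summed marker levels also differed between the groups, not always in the direction of these receptors. In gonadal somatic cells the 5 pre-supporting markers summed to 338 to 502 CPM in the 4 -KTS KO libraries, against 660 to 1321 CPM in the 4 WT and 905 to 1249 CPM in the 4 +KTS KO libraries. The 5 fetal Leydig markers, genes of steroid synthesis among them, summed to 97.7 to 193 CPM in +KTS KO and to 30.5 to 56.6 CPM in the other 8 libraries. The 5 pre-granulosa markers summed to 981 and 1007 CPM in XX WT and 152 and 270 CPM in XX -KTS KO. In XX +KTS KO they summed to 186 and 177 CPM. In XY they summed to 114 and 271 CPM in WT, 217 and 255 in -KTS KO and 351 and 162 in +KTS KO. The 6 interstitial progenitor markers summed to 380 and 366 CPM in XX WT and 744 and 530 CPM in XX -KTS KO. The XX +KTS KO libraries had 471 and 580 CPM of them. Supporting-lineage cells were 51.8% ± 3.69 (SD, n = 2) of somatic cells in XX WT and 20.4% ± 1.32 in XX -KTS KO. In XY they were 45.9% ± 10.9 in WT and 26.97% ± 2.46 in -KTS KO. XX +KTS KO, where both receptors were higher than in XX WT, had 3.59% ± 1.11. The XY +KTS KO libraries had 49.04% and 3.05%. The unnamed clusters led by Cyp11a1 and Inha are not part of this share. In XX +KTS KO they held 3541 of 7698 and 1560 of 4309 somatic cells, against 6 and 4 cells in XX WT. The low share of XX +KTS KO therefore depends on how these clusters were named. The part of these markers and shares in the differences of Nr0b1 and Nr5a1 was not tested. The 5 adrenocortical markers, of a tissue that also uses both receptors, summed to 3.8 to 6.2 CPM in all 12 libraries. Both libraries of each mutant group other than XY +KTS KO lay above those of WT of the same sex.

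Within the 3 large somatic classes, Nr0b1 was low in the -KTS KO libraries throughout. In coelomic epithelium-like cells it was at 18.1 and 20.5 CPM in XX WT and at 2.34 and 1.37 CPM in XX -KTS KO, a fall of 3.36 on the log2 scale (SE 0.46, adjusted p = 0.000881, edgeR). In the same class it was at 14.5 and 25.4 CPM in XY WT, which had 55 and 167 such cells with 6 and 39 UMIs of Nr0b1, and at 2.22 and 1.98 CPM in XY -KTS KO (log2 fold change -3.41 ± 0.61 SE, adjusted p = 0.0132, edgeR). Without XY -KTS KO replicate 2, XY WT replicate 1 or XY WT replicate 2, this call was lost (adjusted p = 0.0568, 0.0510 and 0.692, edgeR). Erythrocyte-like cells, the background class, had 3.14 CPM of Nr0b1 pooled over libraries. The -KTS KO values of coelomic epithelium-like cells were below this, so the size of both falls in that class is uncertain. In interstitial progenitor-like cells, Nr0b1 fell by 2.28 in XX (SE 0.26, adjusted p = 0.000822, edgeR) and by 2.06 in XY (SE 0.25, adjusted p = 0.000559, edgeR). Supporting-lineage cells had 103 and 87.9 CPM in XX WT and 23.1 and 10.1 CPM in XX -KTS KO (log2 fold change -2.51 ± 0.40 SE, adjusted p = 0.00157, edgeR). In XY, they had 72.4 and 89.997 CPM in WT and 34.2 and 52.3 CPM in -KTS KO, with no overlap and a log2 fold change of -0.91 ± 0.38 (SE) that missed the threshold (adjusted p = 0.0933, edgeR) but passed it with DESeq2 (0.0499) and without the filter (6.87e-05).

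In +KTS KO, Nr0b1 was called higher in 2 of these classes. Coelomic epithelium-like cells of XX +KTS KO had 49.9 and 67.9 CPM, and the rise over XX WT was 1.61 on the log2 scale (SE 0.37, adjusted p = 0.0369, edgeR), a call that was lost without any one of the 4 libraries (adjusted p = 0.0724 to 0.267, edgeR). In XY +KTS KO the same class had 22.5 and 73.4 CPM, and the log2 difference from XY WT, 1.20 ± 0.50 (SE), had an adjusted p of 0.438 (edgeR) with both libraries and of 0.00963 without replicate 1. Supporting-lineage cells of XY +KTS KO had 130 and 264 CPM, a rise of 1.26 (SE 0.38, adjusted p = 0.0350, edgeR) that was lost without XY +KTS KO replicate 2, XY WT replicate 1 or XY WT replicate 2 (adjusted p = 0.1996, 0.185 and 0.0649). In XX +KTS KO they had 212 and 218 CPM, above both XX WT libraries, with a log2 difference of 1.17 ± 0.38 (SE, adjusted p = 0.113, edgeR) that was called with DESeq2 (0.0272) and without the filter (1.83e-06). Interstitial progenitor-like cells of XX +KTS KO had 46.8 and 43.0 CPM, against 23.0 and 21.1 CPM in XX WT. The log2 difference of 1.03 ± 0.24 (SE, adjusted p = 0.0799, edgeR) was called by the same 2 alternatives (0.00577 and 9.96e-06). Without the filter, calls over all genes rose as well in XX +KTS KO. They went from 729 to 1780 in supporting-lineage cells and from 157 to 1188 in interstitial progenitor-like cells.

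The classes were not made of the same clusters in every group. Supporting-lineage cells were mainly cluster 3 in XX WT, clusters 12 and 15 in XY WT, cluster 4 in -KTS KO, clusters 21 and 27 in XX +KTS KO and cluster 10 in XY +KTS KO replicate 1. Of the 208 supporting-lineage cells of XY +KTS KO replicate 2, 175 were pre-supporting-like and 11 pre-granulosa-like, so its 2 libraries differed in the clusters behind their values. Coelomic epithelium-like cells were mainly cluster 17 in WT, cluster 6 in -KTS KO and cluster 7 in +KTS KO. Interstitial progenitor-like cells were mainly clusters 5, 8 and 13 in XX WT and XX +KTS KO, clusters 9 and 5 in XY WT, clusters 1 and 14 in -KTS KO, and clusters 18, 8 and 13 in XY +KTS KO. Within a class, a group difference can therefore be a difference between clusters. In supporting-lineage cells these clusters also had different names. Clusters 3 and 10 were pre-granulosa-like, clusters 12 and 15 Sertoli-like, and clusters 4, 21 and 27 pre-supporting-like. Cluster 4 had no pre-supporting marker among its 10 leading genes (Wfdc10, Wfdc13 and Cpa1 came first), while cluster 21 had Sprr2d and cluster 27 Wnt6. The summed pre-supporting markers of gonadal somatic cells were also lowest in the -KTS KO libraries, so the name of cluster 4 is uncertain. Interstitial progenitor-like cells of XX WT and XX +KTS KO, by contrast, shared clusters 5, 8 and 13.

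The number of members called was counted in each class. In supporting-lineage cells it was 1 for XX -KTS KO (17.4% of all genes called), 2 for XX +KTS KO (4.7%), 5 for XY -KTS KO (30.1%) and 3 for XY +KTS KO (22.4%). In interstitial progenitor-like cells it was 2 for XX -KTS KO (7.39%), 0 for XX +KTS KO (1.03%), 2 for XY -KTS KO (17.5%) and 1 for XY +KTS KO (8.84%). In coelomic epithelium-like cells it was 1 for XX -KTS KO (5.75%), 1 for XX +KTS KO (2.49%), 1 for XY -KTS KO (1.72%) and 0 for XY +KTS KO (0.0921%). Beside the counts of 0, DESeq2 called 1 member in each of those comparisons, and the unadjusted edgeR p was under 0.05 for 2 members in interstitial progenitor-like cells of XX +KTS KO and for 3 in coelomic epithelium-like cells of XY +KTS KO.

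Nr5a1, the gene of the receptor that NR0B1 antagonizes, also fell in -KTS KO. It was at 35.4 and 34.1 CPM for XX WT, 15.5 and 21.8 for XX -KTS KO and 65.1 and 70.0 for XX +KTS KO, while the XY values were 43.4 and 60.3 CPM for WT, 12.5 and 18.1 for -KTS KO and 76.1 and 60.2 for +KTS KO. The -KTS KO libraries did not overlap the WT libraries of their sex, nor did those of XX +KTS KO, while XY +KTS KO and XY WT overlapped. The fall in XY -KTS KO was 1.76 on the log2 scale (SE 0.24, adjusted p = 0.000846, edgeR) and was called under all 11 alternatives. In XX -KTS KO it fell by 0.90 (SE 0.23, adjusted p = 0.0277, edgeR), a call lost without XX -KTS KO replicate 1, XX WT replicate 1 or XX WT replicate 2 (adjusted p = 0.184, 0.124 and 0.0883). The rise in XX +KTS KO was 0.96 (SE 0.23, adjusted p = 0.0453, edgeR) and was lost without any one of the 4 libraries compared (adjusted p = 0.130 to 0.228). XY +KTS KO differed from XY WT by 0.39 ± 0.23 (SE, adjusted p = 0.275, edgeR).

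By class, Nr5a1 was at 84.4 and 93.1 CPM in supporting-lineage cells of XY WT, and at 25.6 and 39.8 CPM in those of XY -KTS KO, where it fell by 1.44 (SE 0.23, adjusted p = 0.000775, edgeR). In XX -KTS KO the same class had 36.1 and 37.0 CPM against 43.0 and 43.7 CPM in XX WT, a log2 difference of -0.25 ± 0.23 (SE, adjusted p = 0.517, edgeR). In interstitial progenitor-like cells Nr5a1 fell in both sexes, from 26.1 and 22.5 CPM to 6.78 and 14.1 CPM in XX (log2 fold change -1.23 ± 0.33 SE, adjusted p = 0.0467, edgeR) and from 20.2 and 20.5 CPM to 5.19 and 8.14 CPM in XY (-1.61 ± 0.33 SE, adjusted p = 0.00859, edgeR). The XX call was lost without XX -KTS KO replicate 1, XX WT replicate 1 or XX WT replicate 2 (adjusted p = 0.254, 0.213 and 0.101), and the XY call without XY -KTS KO replicate 1 (0.0689). Supporting-lineage cells of XX +KTS KO, with 70.4 and 107 CPM, were higher than those of XX WT by 1.02 (SE 0.23, adjusted p = 0.0314, edgeR), and this was lost without XX +KTS KO replicate 2 or either XX WT library (adjusted p = 0.284, 0.172 and 0.145). These XX +KTS KO values rest on 337 and 121 cells. In interstitial progenitor-like cells of XY +KTS KO, Nr5a1 was at 49.6 and 32.7 CPM, above XY WT by a log2 difference of 1.02 ± 0.32 (SE, adjusted p = 0.0707, edgeR), which was called with DESeq2 (0.0214), without the filter (4.88e-06) and without XY +KTS KO replicate 2 (0.0444). In the same class XX +KTS KO had 47.6 and 41.5 CPM, and the log2 difference of 0.88 ± 0.32 (SE, adjusted p = 0.262, edgeR) was called without the filter (0.000319). Coelomic epithelium-like cells had 27.9 and 26.9 CPM for XX WT, 15.0 and 22.1 for XX -KTS KO and 51.8 and 56.3 for XX +KTS KO, while the XY values were 9.64 and 35.8 CPM for WT, 10.1 and 15.6 for -KTS KO and 40.7 and 56.4 for +KTS KO. There edgeR made no call (adjusted p = 0.0992 to 0.492), and without the filter it called XX +KTS KO (5.33e-05) and XY -KTS KO (0.00374).

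**Figure D3:**
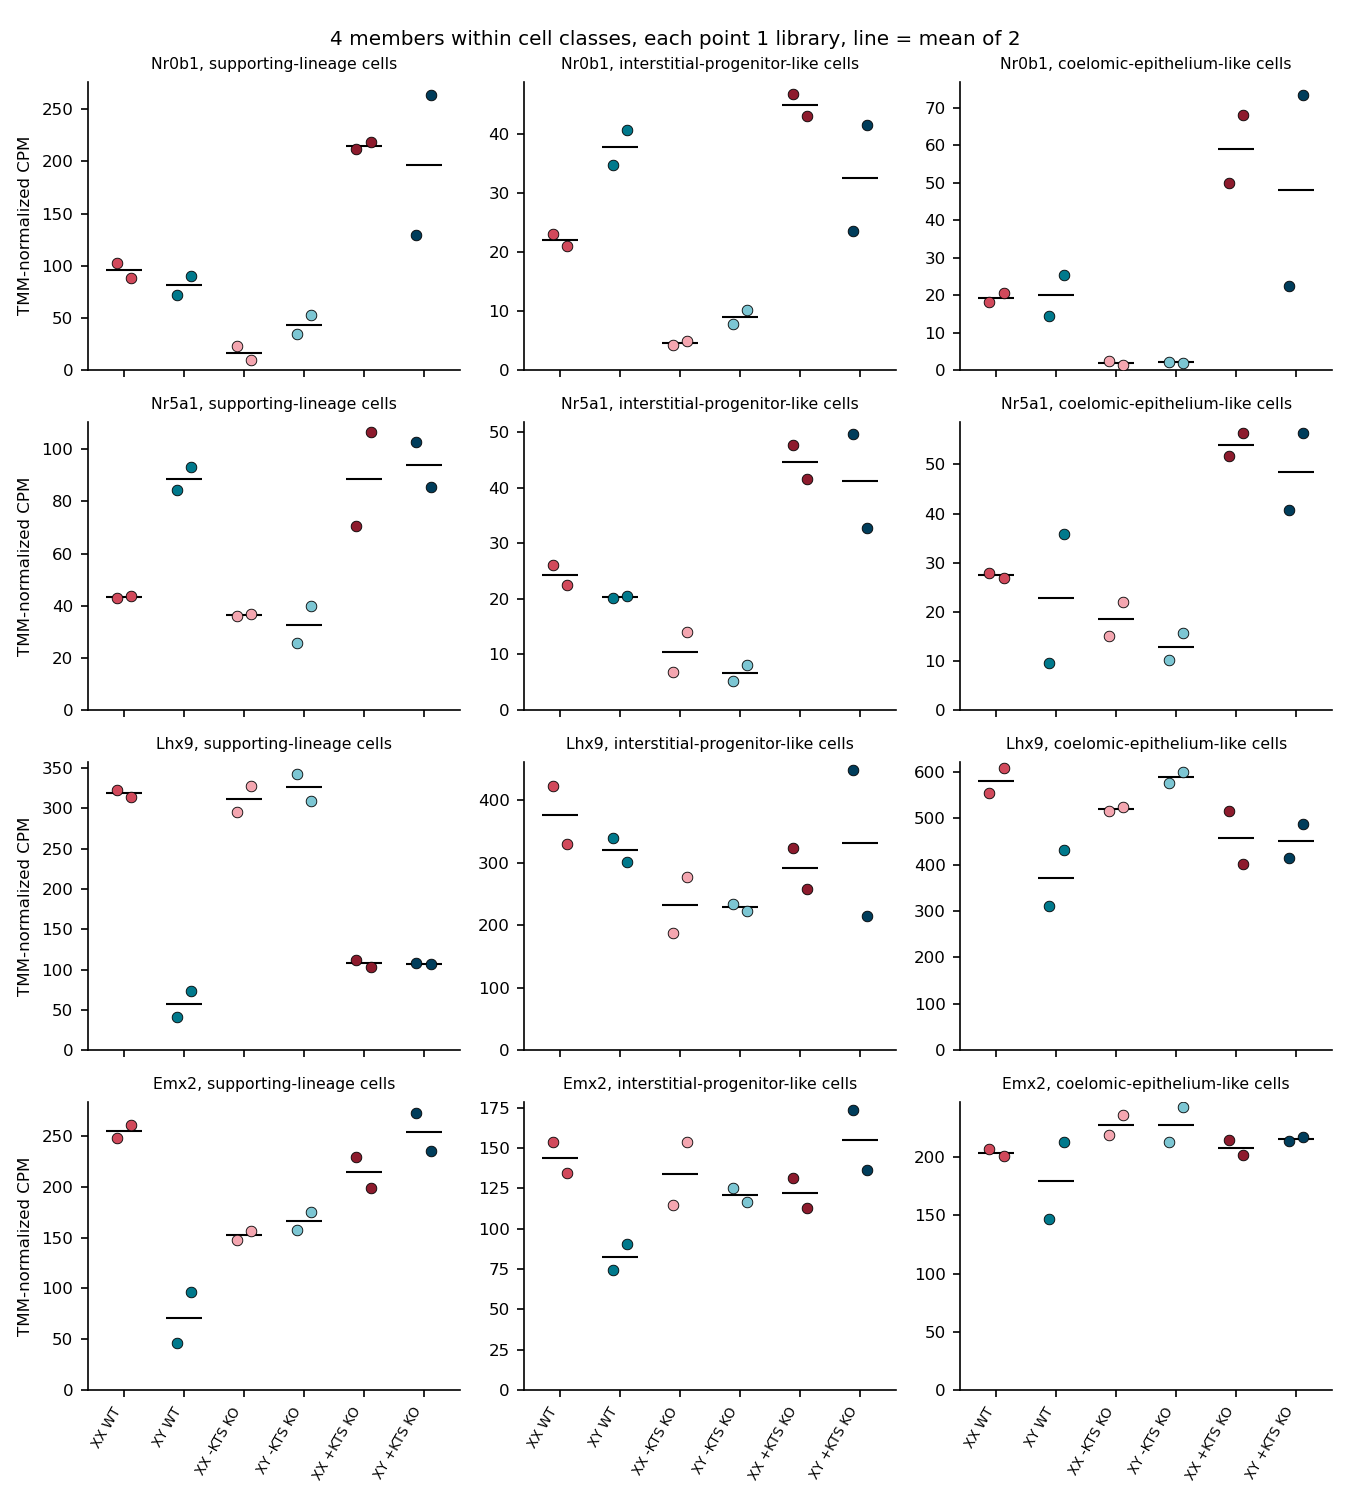
Rows are Nr0b1, Nr5a1, Lhx9 and Emx2, columns are 3 cell classes, each point is 1 library and each line the mean of the 2 libraries of a group, as TMM-normalized CPM on linear axes from 0. Nr0b1 is low in -KTS KO in all 3 classes, and Lhx9 in supporting-lineage cells is at 41.8 and 73.2 CPM in XY WT, against 309 and 343 CPM in XY -KTS KO.

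Gata4 and Zfpm2, which encode a zinc finger factor and its cofactor, were not called in gonadal somatic cells by edgeR with all libraries. Gata4 was at 93.5 and 93.3 CPM for XX WT, 79.9 and 102 for XX -KTS KO and 96.4 and 98.2 for XX +KTS KO, while the XY values were 98.8 and 125 CPM for WT, 68.6 and 87.2 for -KTS KO and 106 and 81.1 for +KTS KO. Only XY -KTS KO and XX +KTS KO did not overlap the WT libraries of their sex. The log2 difference in XY -KTS KO, -0.52 ± 0.19 (SE), missed the threshold (adjusted p = 0.0729, edgeR, and 0.0229 with DESeq2), and the other 3 mutant comparisons gave -0.26 to 0.06. Zfpm2 was at 38.0 to 72.5 CPM in the 12 libraries, with log2 differences from WT of -0.34 to -0.07, none of them called by edgeR with all libraries, and both XX mutant groups lay just below XX WT. Without XY +KTS KO replicate 1 (62.0 CPM, beside 38.0 CPM in replicate 2), the difference in XY +KTS KO went from -0.34 to -0.72 and was called (adjusted p = 0.0470, edgeR). Without that library it was also called in interstitial progenitor-like cells (-0.84, adjusted p = 0.0337, edgeR, against -0.33 and 0.389 with it) and in coelomic epithelium-like cells (-0.95 and 0.0498, against -0.93 and 0.117). In the latter, DESeq2 and the fit without the filter called it with all libraries (0.0170 and 0.0183). The SEs in gonadal somatic cells were 0.19 for Gata4 and 0.22 for Zfpm2. With 2 libraries a group, the Gata4 difference of -0.52 was not called by edgeR, so changes of this size or smaller could be missed.

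Within supporting-lineage cells, both genes were lower in XY -KTS KO than in XY WT. Gata4 was at 155 and 176 CPM in XY WT and at 94.0 and 125 CPM in XY -KTS KO (log2 fold change -0.59 ± 0.16 SE, adjusted p = 0.0168, edgeR). Zfpm2 went from 69.7 and 88.5 CPM to 51.9 and 52.6 CPM (-0.60 ± 0.17 SE, adjusted p = 0.0222, edgeR). The Gata4 call was lost without XY -KTS KO replicate 1 or XY WT replicate 2 (adjusted p = 0.151 and 0.0794), and the Zfpm2 call without either XY -KTS KO library or XY WT replicate 2 (0.0981, 0.0912 and 0.148). XX -KTS KO cells of this class had 136 and 140 CPM of Gata4 and 44.3 and 45.0 CPM of Zfpm2, and neither difference from XX WT was called (0.21 ± 0.16 and -0.43 ± 0.17 on the log2 scale, mean ± SE). In coelomic epithelium-like cells of XX -KTS KO, Gata4 was at 99.4 and 113 CPM against 62.8 and 70.0 CPM in XX WT, with no overlap, and the log2 difference of 0.67 ± 0.19 (SE) had an adjusted p of 0.0528 (edgeR), 0.0177 with DESeq2 and 0.0122 without the filter on low counts.

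Lhx9 and Emx2, the homeobox genes, differed first of all between the sexes of the WT. Lhx9 was at 378 and 364 CPM in gonadal somatic cells of XX WT and at 222 and 173 CPM in XY WT, lower in XY by a log2 fold change of -0.91 ± 0.17 (SE, adjusted p = 0.00867, edgeR). Without XX WT replicate 1 the adjusted p was 0.0583. Emx2 was at 214 and 216 CPM in XX WT and at 62.8 and 95.1 CPM in XY WT, a log2 fold change of -1.44 ± 0.20 (SE, adjusted p = 0.00197, edgeR) that was called under all 11 alternatives. The summed level of the 7 Sertoli markers was 55.5 and 61.1 CPM in these XX WT libraries and 1620 and 1409 CPM in XY WT. It was 39.3 and 40.9 CPM in XY -KTS KO and 247 and 82.9 CPM in XY +KTS KO, so it was lower in every XY mutant library than in XY WT, in the groups where Emx2 was higher. Its part in the differences between the sexes and in the mutants was not tested.

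In XY, both genes were higher in both mutants than in WT, but the difference of Lhx9 in XY +KTS KO was not called by edgeR in gonadal somatic cells. Emx2 was at 142 and 177 CPM for XX -KTS KO and 201 and 177 for XX +KTS KO, while the XY values were 154 and 162 CPM for -KTS KO and 228 and 192 for +KTS KO. Both XY mutant groups lay above XY WT without overlap. The rise over XY WT was 1.00 on the log2 scale in XY -KTS KO (SE 0.20, adjusted p = 0.00594, edgeR) and 1.41 in XY +KTS KO (SE 0.20, adjusted p = 0.00282, edgeR), each called under all 11 alternatives. The XX mutant libraries lay below XX WT, but the log2 differences from WT were -0.43 ± 0.20 (SE) and -0.19 ± 0.20 (SE), with adjusted p of 0.172 and 0.711 (edgeR). Tested directly, the effect on Emx2 differed between XY and XX by 1.43 (SE 0.28, adjusted p = 0.0276, edgeR) in -KTS KO, where 1 member was called and 3.06% of all genes, and by 1.60 (SE 0.28, adjusted p = 0.0162, edgeR) in +KTS KO, where again 1 member was called and 3.81% of all genes. The first call was lost without any one of the 8 libraries compared other than XY WT replicate 2 (adjusted p = 0.0669 to 0.107), and the second without XX +KTS KO replicate 2, XX WT replicate 1 or XX WT replicate 2 (0.0888, 0.0591 and 0.0682). The XX WT and XY WT libraries enter both of these tests.

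Lhx9 was at 279 and 357 CPM for XX -KTS KO and 259 and 237 for XX +KTS KO, while the XY values were 344 and 337 CPM for -KTS KO and 278 and 226 for +KTS KO. It rose in XY -KTS KO by 0.79 (SE 0.17, adjusted p = 0.00969, edgeR), a call lost without XY WT replicate 2 (adjusted p = 0.0677). XX +KTS KO lay below XX WT without overlap, but the log2 difference of -0.58 ± 0.17 (SE) had an adjusted p of 0.0951 (edgeR) and of 0.0196 with DESeq2. In XY +KTS KO both libraries were above XY WT, and the difference was 0.35 ± 0.17 (SE, adjusted p = 0.194, edgeR), or 0.60 and 0.62 with adjusted p of 0.0492 and 0.0476 with all kept cells and with all cells and doublets kept. The difference between the sexes was 1.01 ± 0.24 (SE) for -KTS KO and 0.93 ± 0.24 (SE) for +KTS KO, with adjusted p of 0.0588 and 0.0667 (edgeR). DESeq2 called both (0.00319 and 0.0103), as did the fit without the filter (0.0301 and 0.0462), and the first was called with all cells and doublets kept (0.0460) and the second without XY +KTS KO replicate 2 (0.0344).

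Supporting-lineage cells showed the widest range of Lhx9. They had 323 and 314 CPM for XX WT, 296 and 328 for XX -KTS KO and 112 and 104 for XX +KTS KO, while the XY values were 41.8 and 73.2 CPM for WT, 343 and 309 for -KTS KO and 108 and 106 for +KTS KO. In XY -KTS KO it rose by 2.502 (SE 0.23, adjusted p = 2.11e-05, edgeR), while XX -KTS KO differed from XX WT by -0.03 ± 0.22 (SE, adjusted p = 0.948, edgeR). XX +KTS KO fell below XX WT by 1.56 on the log2 scale (SE 0.23, adjusted p = 0.00365, edgeR), and XY +KTS KO rose above XY WT by 0.90 (SE 0.22, adjusted p = 0.0156, edgeR). The first 2 of these 3 calls held under all 9 alternatives, and the XY +KTS KO call was lost without XY +KTS KO replicate 1 or XY WT replicate 1 (adjusted p = 0.0754 and 0.104). Emx2 in the same cells was at 46.1 and 96.3 CPM in XY WT, and it rose in XY -KTS KO by 1.22 (SE 0.27, adjusted p = 0.00550, edgeR) and in XY +KTS KO by 1.83 (SE 0.27, adjusted p = 0.00101, edgeR), both under all 9 alternatives. In XX -KTS KO it was at 148 and 157 CPM, below XX WT without overlap, and the log2 difference of -0.74 ± 0.27 (SE, adjusted p = 0.0817, edgeR) was called with DESeq2 (0.0457) and without the filter (0.00225). In supporting-lineage cells of +KTS KO, Emx2 was at 199 to 272 CPM beside 248 and 260 CPM in XX WT, while Lhx9 lay below both XX WT libraries in all 4 libraries.

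In the other 2 classes edgeR called no difference of Lhx9 with the filter on low counts. Interstitial progenitor-like cells had 422 and 330 CPM of Lhx9 in XX WT and 187 and 278 CPM in XX -KTS KO, and 341 and 301 CPM in XY WT against 235 and 223 CPM in XY -KTS KO, below WT without overlap in both sexes (log2 differences -0.70 ± 0.31 and -0.49 ± 0.31, mean ± SE). Without the filter, the XX difference was called (adjusted p = 0.00755, edgeR). Coelomic epithelium-like cells had 311 and 431 CPM in XY WT and 577 and 601 CPM in XY -KTS KO, a log2 difference of 0.65 ± 0.19 (SE, adjusted p = 0.117, edgeR) that was called with DESeq2 (0.0442) and without the filter (0.0412). Emx2 rose in interstitial progenitor-like cells of XY +KTS KO, from 74.5 and 90.6 CPM to 174 and 136 CPM (log2 fold change 0.91 ± 0.19 SE, adjusted p = 0.0175, edgeR), and this was lost without XY +KTS KO replicate 1 or XY WT replicate 1 (adjusted p = 0.0670 and 0.144). In XY -KTS KO the same cells had 125 and 117 CPM, above XY WT by 0.55 ± 0.19 (SE, adjusted p = 0.0679, edgeR), which was called with DESeq2 (0.0488) and without the filter (0.0244). In coelomic epithelium-like cells, where the 12 libraries ran from 147 to 243 CPM, Emx2 was not called in any comparison.

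The Sertoli-like class held a cluster with Sox9, the gene of a factor that drives Sertoli cell fate, but not Amh among its 10 leading genes. It had 758 and 1073 cells from XY WT and also 151 and 139 cells from XX WT. In this cluster Lhx9 was at 119 and 124 CPM and Emx2 at 83.6 and 134 CPM in the XY WT libraries. The other Sertoli-like cluster, which had both Sox9 and Amh among its leading genes and 2967 cells, was at 15.9 CPM of Lhx9 and 39.1 CPM of Emx2, pooled over libraries. The whole class, of which both are parts, had 37.8 and 69.2 CPM of Lhx9 and 41.6 and 89.5 CPM of Emx2 there. Nr0b1 was also higher in the cluster without Amh among its leading genes, at 107 and 116 CPM against 65.8 and 88.3 CPM in the whole class. Nr5a1 was lower, at 59.8 and 74.4 CPM against 78.9 and 96.6 CPM. Since clusters were formed from the same cells, these values are a description without a test.

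**Figure D4:**
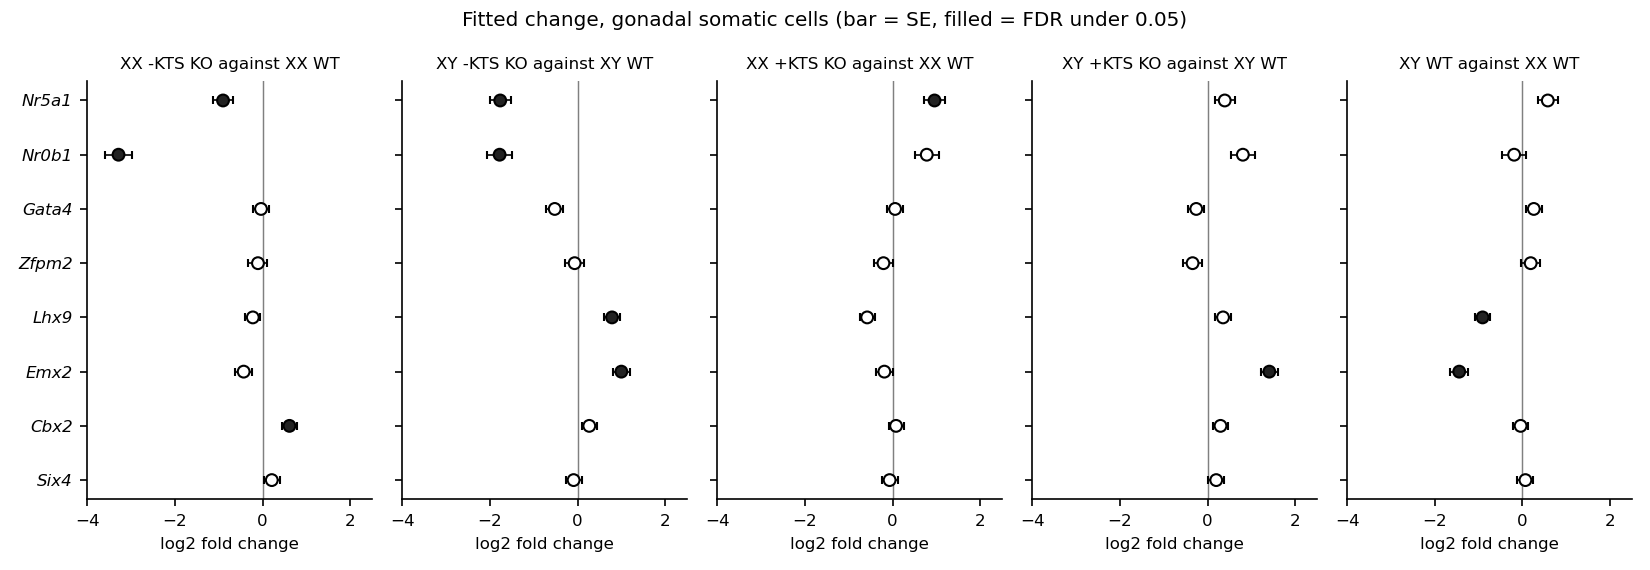
Each panel is 1 comparison in gonadal somatic cells, with the fitted log2 fold change of each gene on the x axis, bars of 1 SE, and filled points for an adjusted p under 0.05. Nr0b1 and Nr5a1 lie to the left in both -KTS KO panels, with Nr0b1 in XX at -3.29, and Emx2 lies to the right in both XY mutant panels (1.00 and 1.41).

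Cbx2, the Polycomb gene, was expressed at a low level, 10.4 to 18.5 CPM in gonadal somatic cells. XX -KTS KO had 15.8 and 18.5 CPM and XX WT 10.4 and 11.9 CPM, with no overlap and a rise of 0.61 on the log2 scale (SE 0.17, adjusted p = 0.0375, edgeR). The call was lost without any one of the 4 libraries (adjusted p = 0.0762 to 0.223), and also when all kept cells were summed (0.138). XY -KTS KO had 11.1 and 15.0 CPM, against 10.9 and 10.8 CPM in XY WT (0.27 ± 0.17 SE, adjusted p = 0.297, edgeR). Cbx2 was not called in any class with edgeR's TMM scaling. In supporting-lineage cells of XY -KTS KO it was at 5.64 and 6.58 CPM, below the 9.14 and 8.80 CPM of XY WT, with an adjusted p of 0.0509 (edgeR), and 0.0456 with RLE size factors.

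Six4, the gene of the SIX4 homeodomain factor, was close to the limit of detection in gonadal somatic cells, at 2.03 to 2.86 CPM in the 12 libraries, and was not called there in any comparison. In supporting-lineage cells it was at 1.88 and 2.05 CPM in XY WT and at 0.799 and 0.805 CPM in XY -KTS KO, where the 2 libraries held 17 UMIs each. That log2 difference, -1.29 ± 0.50 (SE), had an adjusted p of 0.0718 (edgeR), 0.0326 without the filter and 0.0234 with the Cyp11a1 and Inha clusters added. Its RNA was found mainly in germ-like cells, named from Dazl, Ddx4 and other germ markers, at 31.7 CPM pooled over 7096 cells. By library, germ-like cells had 34.7 and 37.6 CPM for XX WT, 31.99 and 27.2 for XX -KTS KO and 33.3 and 27.5 for XX +KTS KO, while the XY values were 25.4 and 35.2 CPM for WT, 22.7 and 33.4 for -KTS KO and 46.9 and 24.2 for +KTS KO. In each of the 12 libraries, the level in germ-like cells was 9.24 to 17.0 times that in gonadal somatic cells. After thinning, 13.8% of germ-like cells had a UMI of Six4 (median depth before thinning 30793 UMIs), against 1.15% of gonadal somatic cells and 0.0859% of erythrocyte-like cells.

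Germ-like cells also held Nr0b1, at 12.3 CPM pooled, while Nr5a1, Gata4 and Zfpm2 were at 0.934, 2.10 and 0.879 CPM there. The ratio of Nr0b1 to Lhx9 UMIs was 0.965 to 7.36 in germ-like cells and 0.0143 to 0.546 in gonadal somatic cells of the 12 libraries, higher in germ-like cells of every library. In XX -KTS KO, where gonadal somatic cells had little Nr0b1, germ-like cells had 19.4 and 13.1 CPM, which was 2.41 and 2.60 times the somatic level of the same library. The other germ-like values were 8.98 and 8.42 CPM for XX WT and 16.9 and 11.9 for XX +KTS KO, and in XY 15.4 and 7.55 CPM for WT, 16.7 and 10.5 for -KTS KO and 7.29 and 19.7 for +KTS KO. In germ-like cells the XX -KTS KO libraries lay above those of XX WT without overlap, and in XY -KTS KO and WT overlapped. No test was planned for germ-like cells, and none was run.

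**Figure D5:**
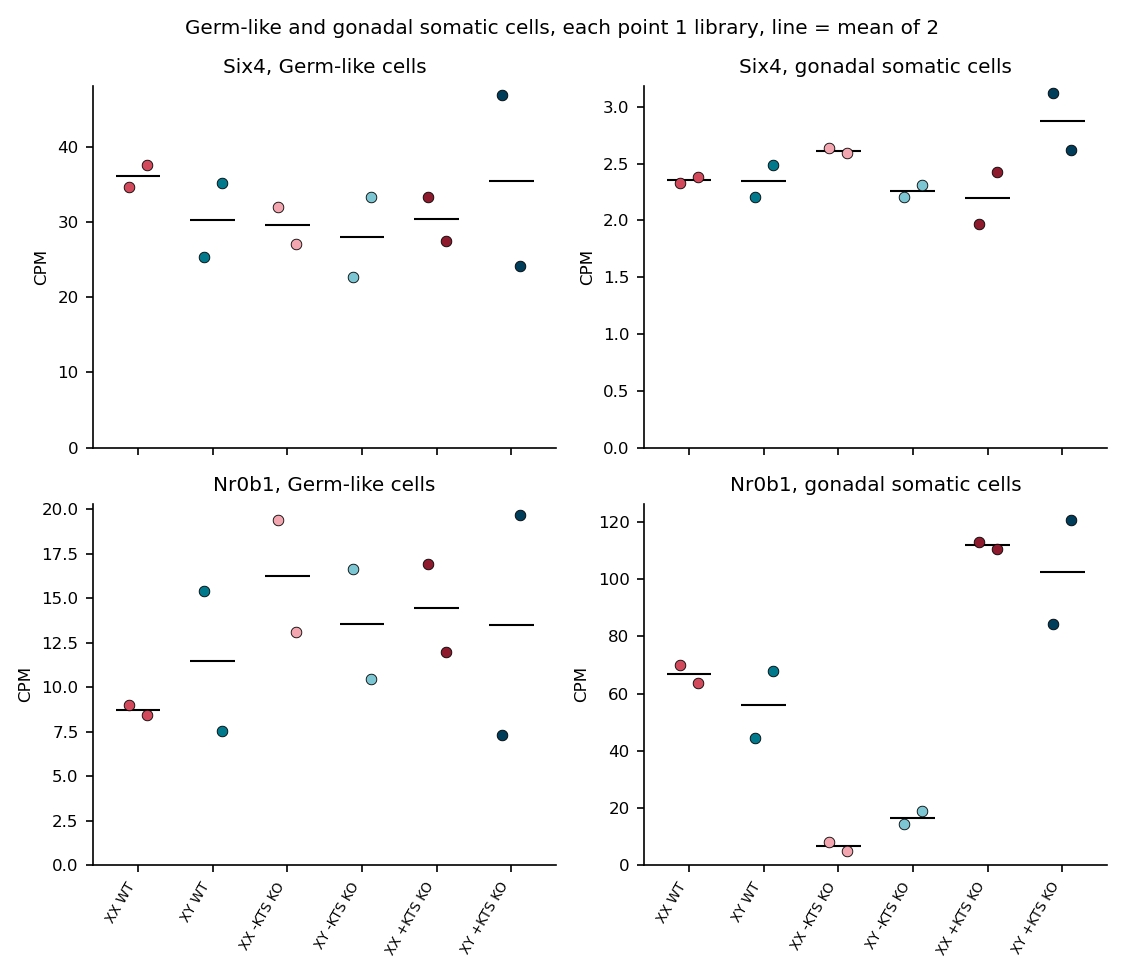
Rows are Six4 and Nr0b1, columns are germ-like and gonadal somatic cells, each point is 1 library and each line the mean of the 2 libraries of a group, as CPM on linear axes from 0. Six4 is at 22.7 to 46.9 CPM in germ-like cells, and Nr0b1 in XX -KTS KO is at 19.4 and 13.1 CPM in germ-like cells.

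Other genes of the same pathways were counted from lists. Of 10 genes known to be driven by NR5A1 or GATA4, 6 fell and 1 rose in gonadal somatic cells of XY -KTS KO, 2 fell and 1 rose in XX -KTS KO, 6 rose and 0 fell in XX +KTS KO, and 3 rose and 3 fell in XY +KTS KO. Cyp11a1, the enzyme of the first step of steroid synthesis, fell by 4.54 in XX and by 4.03 in XY -KTS KO on the log2 scale (adjusted p = 0.000902 and 0.000845, edgeR), and rose by 2.83 and 2.27 in +KTS KO (0.0128 and 0.0162). Star, which encodes the cholesterol transporter of steroidogenic cells, rose by 2.00 in XX and by 1.16 in XY -KTS KO (adjusted p = 0.00299 and 0.0226, edgeR). Amh, the Sertoli hormone, fell by 9.56 in XY -KTS KO and by 2.85 in XY +KTS KO and rose by 5.37 in XX +KTS KO (adjusted p = 9.69e-05, 0.0142 and 0.00456, edgeR). The median log2 fold change of the list was -0.45 in XX and -2.66 in XY -KTS KO, and 1.87 in XX and 0.41 in XY +KTS KO, while that of all genes was 0.00 to 0.05. These counts stand beside 16.2% of all genes called in XX and 23.4% in XY -KTS KO, and 4.99% in XX and 12.4% in XY +KTS KO, and the same shares are the background of the next 3 lists.

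Of the 12 tested among 13 other gonad-formation genes, 2 rose and 1 fell in XX -KTS KO, 3 rose in XY -KTS KO, 0 were called in XX +KTS KO and 1 rose in XY +KTS KO, with medians of -0.04 to 0.27. Osr1, a regulator of intermediate mesoderm, was at 1.58 and 3.03 CPM in XX WT and 26.6 and 11.96 CPM in XX -KTS KO (log2 fold change 3.06, adjusted p = 0.00471, edgeR), and in XY -KTS KO it rose by 4.49 (adjusted p = 0.000711, edgeR). Of 10 paralogs tested among 11, Nr0b2, the other receptor of the NR0B family, fell in XX -KTS KO by 1.39 and in XY -KTS KO by 1.64 (adjusted p = 0.0095 and 0.0027, edgeR), and in XY +KTS KO by 1.79 (0.00423). Zfpm1, the paralog of Zfpm2, rose in both +KTS KO groups, by 1.53 in XX and 1.25 in XY (adjusted p = 0.00193 and 0.00194, edgeR), and by 0.71 in XX -KTS KO (0.016). Paralogs called in the 4 comparisons were 1 up and 2 down in XX -KTS KO, 2 up and 1 down in XY -KTS KO, 1 up and 2 down in XX +KTS KO, and 3 up and 1 down in XY +KTS KO, with medians of -0.31 to 0.30.

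Among 16 partner proteins, 5 rose and 0 fell in XX -KTS KO, 5 rose and 2 fell in XY -KTS KO, 0 rose and 1 fell in XX +KTS KO, and 1 rose and 2 fell in XY +KTS KO, with medians of 0.06 to 0.39. Ldb2, which encodes a cofactor that binds LIM-homeodomain proteins such as LHX9, was at 6.28 and 8.21 CPM in XX WT and at 41.3 and 34.8 CPM in XX -KTS KO, a rise of 2.39 (adjusted p = 0.000183, edgeR), and rose by 3.05 in XY -KTS KO (adjusted p = 2.24e-05, edgeR). It fell by 1.12 in XX +KTS KO (adjusted p = 0.0137, edgeR). Lmo4, a LIM-only protein that binds the same cofactors, rose by 0.82 in XX -KTS KO and fell by 1.21 in XY -KTS KO (adjusted p = 0.0289 and 0.00345, edgeR), and Lmo4 was higher in XY WT than in XX WT by 2.00 (0.000665).

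As a description of likeness, Pearson's r of log2(CPM + 1) was computed between each member and 5680 genes with a mean of at least 20 CPM across the 12 sums of gonadal somatic cells. The genes most like Nr0b1 were Hsbp1l1 (r = 0.97) and Wnt6 (0.96), and those most like Nr5a1 were Ralgps2 (0.99) and Coro1c (0.98). Emx2 was nearest to Adgrl3 and Olfm1 (both 0.95), Lhx9 to Ubap1 (0.92) and Sh2d4a (0.87), Gata4 to Ctnnd1 (0.91) and Psmd2 (0.89), Zfpm2 to Pggt1b (0.91) and Bclaf1 (0.90), Cbx2 to B230219D22Rik (0.98) and Zfp664 (0.94), and Six4 to Dr1 (0.83) and Orc2 (0.77). Between the members, r was highest for Nr5a1 and Nr0b1 (0.87). Across 33 clusters of at least 100 cells, the nearest genes were Etnk2 (0.96) and Amhr2 (0.95), which encodes the AMH receptor, for Nr5a1, Tle6 (0.92) and Tst (0.91) for Nr0b1, Gm45889 (0.97) and Acaa2 (0.95) for Gata4, Phldb2 (0.94) and Smarca1 (0.93) for Zfpm2, and Cpne8 (0.92) and Dclk1 (0.88) for Lhx9. Emx2 was nearest to E330013P04Rik (0.99) and its own antisense gene Emx2os (0.98), Cbx2 to Cbx1 and Bcl7a (both 0.91), and Six4 to Trmt11 (0.91) and Ppan (0.88). These points share libraries and cell composition, and groups of libraries form clusters of points, so no p is given.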

How the data were processed

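Single-cell RNA sequencing libraries of dissociated E12 gonads had been prepared with the 10x Genomics 3′ kit (the labels give v2, the methods v3). The authors deposited UMI counts per gene and barcode, not normalized, made with Cell Ranger 6.0 on mm10 according to the submitters' processing notes. The sources used here do not say whether counting used strand. A floor of 1000 genes and a ceiling of 10% mitochondrial UMIs left 83513 of 103730 barcodes. Scrublet (scanpy 1.11.5) called at most 3 doublets in 9 of 12 libraries, so the highest-scoring 0.8% per 1000 barcodes were removed instead, which marked 7447 barcodes including some of low quality, and 76976 cells were kept. Counts were normalized with sctransform 0.4.2 and clustered in Seurat 5.3.0 (3000 variable genes without the members, 50 components, 20 neighbours, resolution 0.8), giving 36 clusters. Clusters were named "-like" from marker lists. The thresholds for naming (at least 3 markers, among others) were set after the clusters were seen, and shallow clusters or those with too few markers stayed unnamed.

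Raw counts were summed per library over gonadal somatic cells and over 3 classes with at least 50 cells in every library. They were tested with edgeR 4.0.16 (filterByExpr, TMM, quasi-likelihood test, all 6 groups in 1 fit) in R 4.3.3, p-values being adjusted by Benjamini-Hochberg across every gene in the fit and called under 0.05. Log2 fold changes have 1 standard error. The method was tested on simulated data. Depth was 108111924 to 147968666 UMIs a library and each group had 2 libraries, which limits precision. Shares of cells were taken after thinning each cell to 5000 UMIs. Alternatives were DESeq2 1.42.0, no filter on low counts, RLE size factors, the replicate number as a block, each library left out, all kept cells, all cells with doublets not removed, and 2 sets of clusters added after seeing the data.

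The rule was to name the 8 members in every comparison (those without a call are partly given as counts or ranges), the called genes of 4 lists (up to 6 by size of change, of which a few are given here), and for each member the 2 genes with the highest correlation. The members and the lists were chosen with earlier results of these data known. Python 3.11.15, numpy 2.4.6, scipy 1.17.1, pandas 2.3.3 and matplotlib 3.10.9 were used for the rest.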

Additional observations from a re-analysis of the deposited data

Results flagged for a closer look

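The effect of each Wt1 mutation on Emx2 in gonadal somatic cells differed between the sexes by a test of that difference (edgeR). The log2 effect was 1.43 higher in XY than in XX for -KTS KO (adjusted p = 0.0276) and 1.60 higher for +KTS KO (adjusted p = 0.0162). The first call was lost without any one library other than XY WT replicate 2 (adjusted p = 0.0669 to 0.107). The second was lost without XX +KTS KO replicate 2 (0.0888), XX WT replicate 1 (0.0591) or XX WT replicate 2 (0.0682). Both differences share the 4 WT libraries, and between the WT sexes Emx2 was itself lower in XY. Within each mutant, the XY and XX libraries overlapped in their levels of Emx2. No group had enough libraries to search for a single library far from the others.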

How the results depend on the processing

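No log2 fold change of a called member changed sign under any alternative run. With each library left out in turn, 616 of the values by member and comparison stayed on the same side of the threshold, 49 calls were lost and 7 were gained. The number of members called then ran as follows. In gonadal somatic cells it was 1 to 2 in XX -KTS KO (3 with all libraries), 3 to 4 in XY -KTS KO (4), 0 to 0 in XX +KTS KO (1), 1 to 3 in XY +KTS KO (1), 1 to 2 between the WT sexes (2), 0 to 1 for the difference of the -KTS KO effect between the sexes (1) and 0 to 2 for that of +KTS KO (1). In supporting-lineage cells it was 1 to 1 in XX -KTS KO (1), 3 to 5 in XY -KTS KO (5), 1 to 2 in XX +KTS KO (2) and 1 to 2 in XY +KTS KO (3). In interstitial progenitor-like cells it was 1 to 2 in XX -KTS KO (2), 1 to 2 in XY -KTS KO (2), 0 to 0 in XX +KTS KO (0) and 0 to 2 in XY +KTS KO (1). In coelomic epithelium-like cells it was 1 to 1 in XX -KTS KO (1), 0 to 1 in XY -KTS KO (1), 0 to 0 in XX +KTS KO (1) and 0 to 2 in XY +KTS KO (0). Where a group keeps 1 library, that library is assumed to vary like the other groups.

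The number of members called moved by over 1.5 times in these cases, smaller moves being left out. DESeq2 called 2 members in XX +KTS KO, 3 and 2 for the differences of the -KTS KO and +KTS KO effects between the sexes, 2 in supporting-lineage cells of XX -KTS KO, 1 and 2 in interstitial progenitor-like cells of XX and XY +KTS KO, and 2, 2 and 1 in coelomic epithelium-like cells of XX -KTS KO, XY -KTS KO and XY +KTS KO. Without the filter on low counts, 2 were called in XY +KTS KO, 3 and 2 for the differences between the sexes, 2 in supporting-lineage cells of XX -KTS KO, 2 and 2 in interstitial progenitor-like cells of XX and XY +KTS KO, and 2, 2, 3 and 2 in coelomic epithelium-like cells of XX -KTS KO, XX +KTS KO, XY -KTS KO and XY +KTS KO. With all kept cells 3 were called in XY +KTS KO, and with all cells and doublets kept 3 there and 2 for the difference of the -KTS KO effect. The cause was not tested.

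The calls over all genes moved by over 1.5 times as follows. Summing all kept cells, or all cells with doublets kept, in place of gonadal somatic cells gave XX +KTS KO 447 and 453 calls (883 as reported), XX -KTS KO 1463 and 1511 (2873), 2409 and 2450 for XY -KTS KO (4147), 1203 and 1281 between the WT sexes (2345), 251 and 278 for the difference of the +KTS KO effect (674), and 149 and 178 for that of -KTS KO (542). In gonadal somatic cells DESeq2 and no filter gave 1507 and 1369 for XX +KTS KO, and 1511 and 1223, and 1322 and 985, for those differences. In coelomic epithelium-like cells, without the filter XX +KTS KO had 976 (352) and XX -KTS KO had 1570 (812), and DESeq2 and no filter gave 145 and 432 for XY +KTS KO (13) and 457 and 769 for XY -KTS KO (242). In interstitial progenitor-like cells DESeq2 and no filter gave 450 and 1188 for XX +KTS KO (157) and 2062 and 2798 for XY +KTS KO (1352), and no filter 2411 for XX -KTS KO (1130). In supporting-lineage cells of XX +KTS KO (729), no filter gave 1780 and adding the Cyp11a1 and Inha clusters 1478.

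RLE size factors left these counts within 1.5 times, as did the 2 sets of clusters chosen after seeing the data in every comparison other than that last one. Without thinning, 48 of 48 shares of cells moved by more than 1 SD.

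The replicate numbers were not taken to pair the samples, since not every pair of groups correlated. Over 15 pairs of groups, the correlation of the differences between replicates ran from -0.431 to 0.496 in gonadal somatic cells, from -0.328 to 0.388 in supporting-lineage, from -0.398 to 0.539 in interstitial progenitor-like and from -0.356 to 0.443 in coelomic epithelium-like cells. XX WT, XY WT and XY -KTS KO correlated with each other in all but coelomic epithelium-like cells (0.227 to 0.539), a hint from the data and not the design. With the replicate block, 1 member was called in interstitial progenitor-like cells of XX -KTS KO, where Nr5a1 had an adjusted p of 0.0575 (edgeR), and 2 each in coelomic epithelium-like cells of XX -KTS KO, where Gata4 was added (0.0213), and of XX +KTS KO, where Nr5a1 was (0.0430). Depth limits Six4 most, since it was at 2.03 to 2.86 CPM in gonadal somatic cells.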
